A study of Mus musculus with 6 samples.

Results

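The receptors for the Fc portion of immunoglobulin G and the signalling chain that most of them share were followed in the hearts of mice on 3 diets. The genes were *Fcgr1*, *Fcgr3* and *Fcgr4*, which encode activating receptors, *Fcgr2b*, which encodes the inhibitory receptor, and *Fcer1g*, which encodes the common Fc gamma chain. They were matched by symbol, and all 5 were found among the 24346 genes measured and passed the filter on low values (0.5 FPKM on average across all 6 libraries), as did 12923 genes in all. FPKM count sequenced fragments relative to exon length and to the mapped total of a library, so that levels are per length. Comparisons are written N vs C, NP vs N and NP vs C, each the first group minus the second.

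The hearts came from C57BL/6 J male mice. The C group was fed normal chow. The N group was fed a diet for nonalcoholic steatohepatitis (NASH), which was rich in fat, cholesterol and sucrose and also held bile acid. The NP group received the same N diet to which pemafibrate was added at 0.1 mg/kg, a selective modulator of the nuclear receptor PPARα. The labels give 3 weeks of feeding for every group, a shorter time than the study's methods. Each group had 2 libraries, and nothing in the labels says that they came from separate mice, so that *P* values measure the spread between these samples, which may be technical.

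Fc gamma receptors bind immunoglobulin G once it coats a target or sits in an immune complex. The activating receptors rely on the Fc gamma chain, whose tyrosine motif (ITAM) is phosphorylated by Src family kinases and then recruits Syk, which leads to phagocytosis, an oxidative burst and cytokine release. The inhibitory receptor carries a motif of its own (ITIM) that recruits the lipid phosphatase SHIP and dampens these signals. Macrophages and monocytes carry most of these receptors, neutrophils several of them, natural killer (NK) cells mainly the product of *Fcgr3*, and B cells *Fcgr2b* without the activating receptors. Interferon-gamma is a known inducer of *Fcgr1* and *Fcgr4* in macrophages.

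The libraries differed in ways that touch these values. The depth, estimated from the steps between low FPKM values, was 21600000 to 26200000 reads in the C libraries and 8210000 to 8780000 reads in the N and NP libraries, so that depth cannot be told apart from diet in comparisons with the C group. C replicate 2 stood apart by liver transcripts, with a summed FPKM of 738 over 10 liver markers against 23.9 to 59.7 in the other libraries. Ventricular cardiomyocyte markers were high in all 6 libraries, while 8 atrial markers summed to 214 to 332 FPKM in the C libraries and to 3768 to 6338 FPKM in the N and NP libraries. Their part in the comparisons with the C group was not tested. The atrial sum was 3768 and 5308 on the N diet and 3857 and 6338 with pemafibrate.

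All 5 genes lay higher in both N libraries than in both C libraries, as did 22.5% of all genes tested, and lower in both NP libraries than in both N libraries, as did 14.7%. In limma's test on log2(FPKM + 1), 3 of the 5 genes, *Fcgr4*, *Fcer1g* and *Fcgr1*, rose in N vs C, where 1.55% of all genes tested passed, and 1.48% passed upwards. In NP vs N, 4 of the 5 fell, *Fcgr4*, *Fcer1g*, *Fcgr1* and *Fcgr3*, against 1.39% of all genes. In NP vs C none of the 5 passed, against 0.0387% of all genes, and 3 of the 5 were lower at an unadjusted limma *P* value under 0.05, as were 4.18% of all genes. At that unadjusted threshold all 5 were higher in N vs C, as were 8.24% of all genes, and all 5 lower in NP vs N, as were 5.83%. In bulk RNA, fewer cells that carry a receptor and less of its RNA per cell cannot be told apart.

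**Figure D1:**
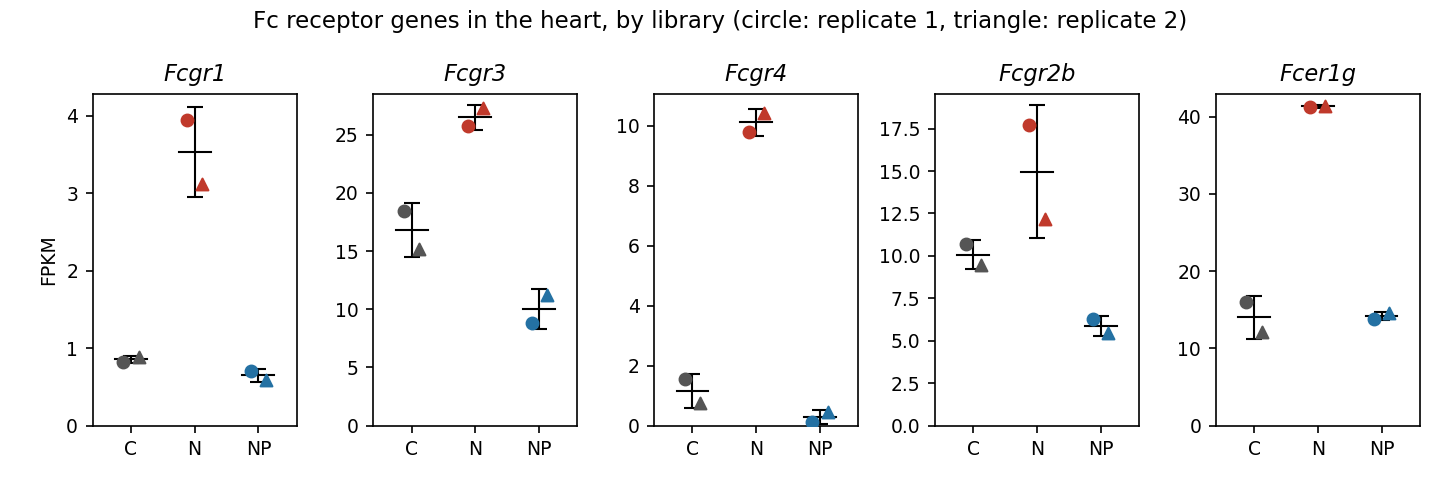
FPKM of the 5 genes in each library (circles are replicate 1, triangles replicate 2; the horizontal bar is the group mean and the error bar the SD, n = 2; each panel has its own linear axis from 0). The N libraries lie above all C and NP libraries in every panel, most widely for *Fcgr4*, at 9.80 and 10.4 against at most 1.57.

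Among the activating receptors, *Fcgr1* encodes the high-affinity receptor, which can bind single immunoglobulin G molecules. The gene lies apart from the others, at chr3:96282909-96293969 of the mouse genome (GRCm38, the mm10 build). Its FPKM was 0.826 and 0.887 on chow, 3.94 and 3.12 on the N diet and 0.710 and 0.590 with pemafibrate. The lower N library was at least 3.52 times every C and NP library, and the NP libraries lay just under the C libraries without overlap. The mean was 0.856 ± 0.0431 for C, 3.53 ± 0.580 for N and 0.650 ± 0.0846 for NP (SD, n = 2). The N mean was therefore 4.12 times the C mean and 5.43 times the NP mean. On the log2(FPKM + 1) scale, which understates changes of low values, *Fcgr1* rose by 1.28 in N vs C (standard error 0.15, limma adjusted *P* = 0.0172) and fell by 1.45 in NP vs N (standard error 0.15, limma adjusted *P* = 0.0109). The NP and C groups differed by -0.17 with a 95% interval from -0.53 to 0.19 (limma adjusted *P* = 0.814).

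*Fcgr4* encodes a receptor of intermediate affinity found on monocytes, macrophages and neutrophils. It lies at chr1:171018926-171029761 and showed the widest differences of the 5 genes. Its FPKM was 1.57 and 0.751 on chow, 9.80 and 10.4 on the N diet and 0.116 and 0.450 with pemafibrate. The N libraries differed 1.06-fold from each other, the C libraries 2.08-fold and the NP libraries 3.87-fold, and no group overlapped another. The low values rest on few reads, since the NP libraries held an estimated 1.0 and 4.0 reads of *Fcgr4*, while there were 91.0 and 95.8 on the N diet alone and 43.4 and 17.2 on chow. *Fcgr4* averaged 1.16 ± 0.576 FPKM for C, 10.1 ± 0.442 for N and 0.283 ± 0.236 for NP (SD, n = 2).

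With the estimated reads of both libraries summed, *Fcgr4* was 8.53-fold higher in N than in C hearts (95% exact binomial interval 6.34 to 11.6, for 187 against 60 reads). It was 35.8-fold lower in NP than in N hearts (interval 15.1 to 111, for 5 against 187 reads). The C group lay 4.19-fold above the NP group (interval 1.70 to 13.4, for 60 against 5 reads). These intervals cover counting error only and not the spread between libraries. In limma's test *Fcgr4* rose by 2.39 in N vs C (standard error 0.23, adjusted *P* = 0.00857) and fell by 3.13 in NP vs N (standard error 0.23, adjusted *P* = 0.00309). The NP group differed from the C group by -0.74 with a 95% interval from -1.30 to -0.18, and did not pass (limma adjusted *P* = 0.543). With a pseudocount of 0.1 in place of 1, the difference of *Fcgr4* in N vs C was 3.10 but no longer passed (limma adjusted *P* = 0.0590).

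The promoters are shown because *Fcgr1*, *Fcgr4* and *Fcer1g* were the 3 genes that rose in N vs C and fell in NP vs N. Motifs were searched on both strands of the 250 bases before the transcription start, from the RefSeq promoters of GRCm38.p6. They were TTCNNNGAA, a form of the gamma-activated site, which 7.02% of 32851 mouse promoters held, the core of the interferon-stimulated response element (GAAA, any 2 bases and GAAA again), which 2.98% held, and AGGAAGT, a site of the PU.1 type, which 7.69% held. PU.1 is a lineage factor of macrophages, and the motifs do not overlap in these promoters. Each sequence runs 5′ to 3′ on the strand of the gene, ends at the base before the start, and has the matches in capitals. The *Fcgr1* promoter lies at chr3:96293970-96294219 on the minus strand, the *Fcgr4* promoter at chr1:171018676-171018925 on the plus strand and the *Fcer1g* promoter at chr1:171234350-171234599 on the minus strand.
Fcgr1: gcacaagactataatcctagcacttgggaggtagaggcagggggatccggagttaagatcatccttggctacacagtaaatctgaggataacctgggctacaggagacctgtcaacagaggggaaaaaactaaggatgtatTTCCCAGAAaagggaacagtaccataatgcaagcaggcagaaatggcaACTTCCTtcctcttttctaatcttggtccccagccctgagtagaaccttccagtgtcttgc
Fcgr4: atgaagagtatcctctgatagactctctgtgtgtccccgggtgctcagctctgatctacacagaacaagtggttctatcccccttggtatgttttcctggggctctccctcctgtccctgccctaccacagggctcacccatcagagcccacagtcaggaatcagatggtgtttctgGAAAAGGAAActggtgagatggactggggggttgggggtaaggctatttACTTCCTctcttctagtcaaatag
Fcer1g: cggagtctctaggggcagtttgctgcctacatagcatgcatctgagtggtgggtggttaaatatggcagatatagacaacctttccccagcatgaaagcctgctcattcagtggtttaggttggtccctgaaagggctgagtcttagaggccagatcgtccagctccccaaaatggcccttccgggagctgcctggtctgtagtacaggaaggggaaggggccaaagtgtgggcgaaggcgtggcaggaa

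*Fcgr1* held a gamma-activated site, TTCCCAGAA, from -109 to -101 relative to the start and the PU.1 type site on the reverse strand, read as ACTTCCT, from -61 to -55. *Fcgr4* held the interferon response core, GAAAAGGAAA, from -73 to -64 and the PU.1 type site, again as ACTTCCT, from -24 to -18. *Fcer1g*, *Fcgr2b* and *Fcgr3* held 0 matches to these 3 patterns in the same window. A match is a description of the letters and does not show binding, and these data hold no measure of binding.

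**Figure D2:**
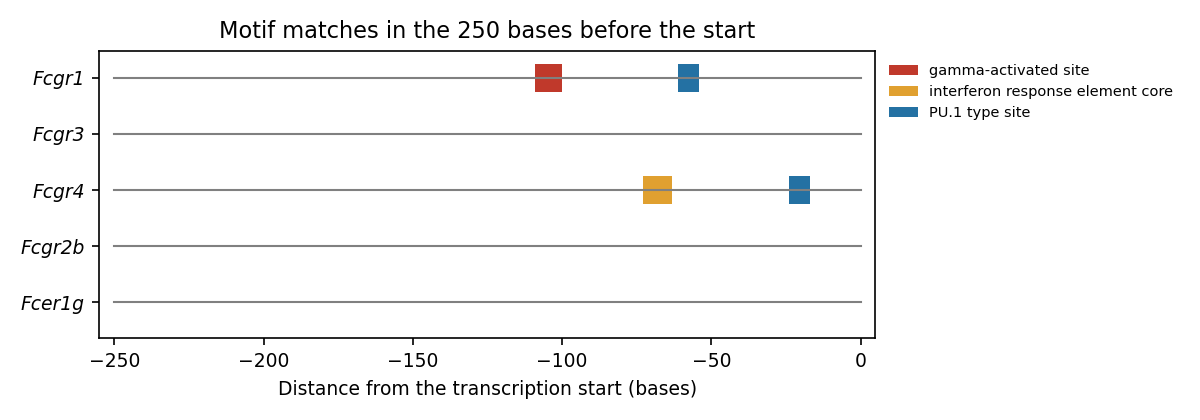
Positions of the 3 motifs in the 250 bases before the transcription start of each gene, with the distance from the start in bases on the horizontal axis. *Fcgr1* and *Fcgr4* hold 2 matches each, and the other 3 genes hold 0, for *Fcgr3* before starts that lie inside the span of the gene.

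*Fcgr3* encodes a low-affinity activating receptor and was the most abundant of the 4 receptors in every library. It lies at chr1:171051169-171065915. Its FPKM was 18.4 and 15.2 on chow, 25.8 and 27.3 on the N diet and 8.78 and 11.3 with pemafibrate. The 3 groups did not overlap, with the N libraries highest and the NP libraries lowest. The means were 16.8 ± 2.30 for C, 26.5 ± 1.07 for N and 10.02 ± 1.75 for NP (SD, n = 2), so that the N mean was 1.58 times the C mean and 2.65 times the NP mean. *Fcgr3* fell in NP vs N by 1.33 on the log2(FPKM + 1) scale (standard error 0.16, limma adjusted *P* = 0.0208). The difference in N vs C was 0.63 (95% interval 0.24 to 1.02), which did not pass (limma adjusted *P* = 0.148). In NP vs C it was -0.70, with an unadjusted limma *P* value of 0.00471 and an adjusted *P* value of 0.462.

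*Fcer1g* encodes the Fc gamma chain, which the activating receptors need for signalling and, for most of them, to reach the cell surface, and which also serves the high-affinity receptor for immunoglobulin E. It lies at chr1:171229572-171234349. Its FPKM was 16.0 and 12.1 on chow, 41.2 and 41.4 on the N diet and 13.9 and 14.6 with pemafibrate. The NP libraries lay between the C libraries, so that these groups overlapped, and *Fcer1g* was the only one of the 5 genes for which they did. The means were 14.0 ± 2.76 for C, 41.3 ± 0.166 for N and 14.2 ± 0.518 for NP (SD, n = 2). *Fcer1g* rose by 1.51 in N vs C (standard error 0.15, limma adjusted *P* = 0.00948) and fell by 1.48 in NP vs N (standard error 0.15, limma adjusted *P* = 0.0103). The NP and C groups differed by 0.03 with a 95% interval from -0.33 to 0.39 (limma adjusted *P* = 0.980).

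*Fcgr2b* encodes the inhibitory receptor and lies at chr1:170960558-170976071. Its FPKM was 10.7 and 9.47 on chow, 17.7 and 12.2 on the N diet and 6.31 and 5.48 with pemafibrate. The groups did not overlap, but the N libraries differed 1.46-fold from each other, and the lower of them was only 1.14 times the higher C library. The means were 10.1 ± 0.849 for C, 15.0 ± 3.92 for N and 5.90 ± 0.586 for NP (SD, n = 2). *Fcgr2b* passed in none of the 3 comparisons in this fit, which takes the libraries of different groups as unpaired. The differences were 0.51 in N vs C (limma adjusted *P* = 0.296), -1.19 in NP vs N (limma adjusted *P* = 0.0561) and -0.68 in NP vs C (limma adjusted *P* = 0.507), with unadjusted limma *P* values of 0.0381, 0.000842 and 0.0119.

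**Figure D3:**
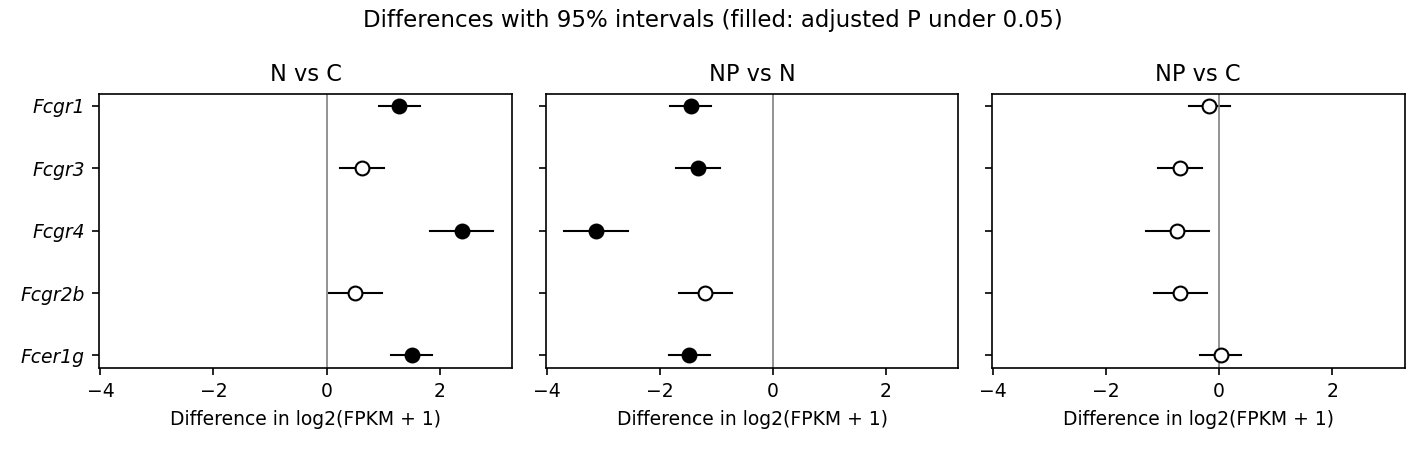
Difference of each gene in log2(FPKM + 1) in the 3 comparisons (horizontal axis, first group minus second), with the 95% interval from limma as a bar. Filled points have an adjusted *P* value under 0.05, which holds for 3 genes in N vs C, for 4 in NP vs N and for 0 in NP vs C.

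In NP vs C 4 of the 5 genes lay lower without overlap, against 23% of all genes. The median difference of the 5 genes was 1.28 in N vs C, -1.45 in NP vs N and -0.68 in NP vs C, whereas the median over all genes tested was -0.03, 0.03 and -0.01. These comparisons share libraries, the N libraries entering the first 2 with opposite signs, so that they are not independent of each other.

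Leaving out 1 library turned none of these differences in N vs C or NP vs N but mostly removed calls, in a fit with fewer samples. Calls over all genes tested also fell in both comparisons, whichever library was left out, so that the loss was not particular to these genes. For fits without 1 library, the share of all genes with an unadjusted limma *P* value under 0.05 was not computed. This also applies to the lists below. In N vs C, 0 of the 5 genes passed in limma's test without C replicate 2, the library with liver transcripts, or without N replicate 1 or 2, while 3, 4 and 5 genes had an unadjusted limma *P* value under 0.05. Without C replicate 2 the differences were 2.11 for *Fcgr4*, 1.32 for *Fcer1g* and 1.31 for *Fcgr1* (limma adjusted *P* = 0.0585, 0.0706 and 0.137). Without C replicate 1, 2 genes passed, and without either NP library 3 did. In NP vs N the number that passed was 1 to 3 when 1 library was left out, namely 2 without either C library, 1 without N replicate 1, NP replicate 1 or NP replicate 2, and 3 without N replicate 2. Without N replicate 2 the genes that passed in NP vs N included *Fcgr2b*, with a difference of -1.44, but neither *Fcgr3* nor *Fcer1g*. Only *Fcgr4* kept an adjusted *P* value under 0.05 in NP vs N in all 17 alternative analyses, with differences from -4.89 to -2.94.

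The make-up of the receptors also differed. The 4 receptors together summed to 31.5 and 26.3 FPKM on chow, 57.2 and 53.0 on the N diet and 15.9 and 17.8 with pemafibrate. *Fcgr4* made up 4.97% and 2.86% of this sum on chow, 17.1% and 19.7% on the N diet and 0.731% and 2.53% with pemafibrate. The share of *Fcgr1* was 2.62% and 3.37% on chow, 6.89% and 5.89% on the N diet and 4.46% and 3.32% with pemafibrate. Both shares were highest in the N libraries without overlap. *Fcgr3* held 58.5% and 57.8% on chow, 45.0% and 51.4% on the N diet and 55.2% and 63.3% with pemafibrate, and was lowest in the N libraries. *Fcgr2b* held 33.9% and 36.0% on chow, 31.0% and 23.0% on the N diet and 39.6% and 30.8% with pemafibrate, and its N and NP libraries overlapped.

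The balance of activating to inhibitory receptors was taken as the summed FPKM of *Fcgr1*, *Fcgr3* and *Fcgr4* over that of *Fcgr2b*. This ratio was 1.95 and 1.78 on chow, 2.23 and 3.35 on the N diet and 1.52 and 2.24 with pemafibrate. The N libraries lay above the C libraries, but NP replicate 2 lay within the range of the N libraries. On the log2 scale the ratio differed by 0.55 in N vs C (two-sided exact permutation test, *P* = 0.333, the smallest that 2 libraries against 2 can give), by -0.56 in NP vs N (exact *P* = 0.667) and by -0.01 in NP vs C (exact *P* = 1.0). With 2 libraries a group this test cannot pass a threshold of 0.05. Most of the summed ratio was *Fcgr3*, and without it the log2 ratio differed by 2.24 in N vs C, by -2.56 in NP vs N and by -0.32 in NP vs C (exact *P* = 0.333, 0.333 and 0.667). For *Fcgr4* over *Fcgr2b* alone these differences were 2.67, -4.14 and -1.47, for *Fcgr1* alone 1.49, -1.12 and 0.37, and for *Fcgr3* alone 0.11, -0.0921 and 0.0218. The FPKM of *Fcer1g* over the summed activating receptors was 0.767 and 0.717 on chow, 1.04 and 1.02 on the N diet and 1.44 and 1.19 with pemafibrate, and was highest in the NP libraries, where the receptors themselves were lowest.

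**Figure D4:**
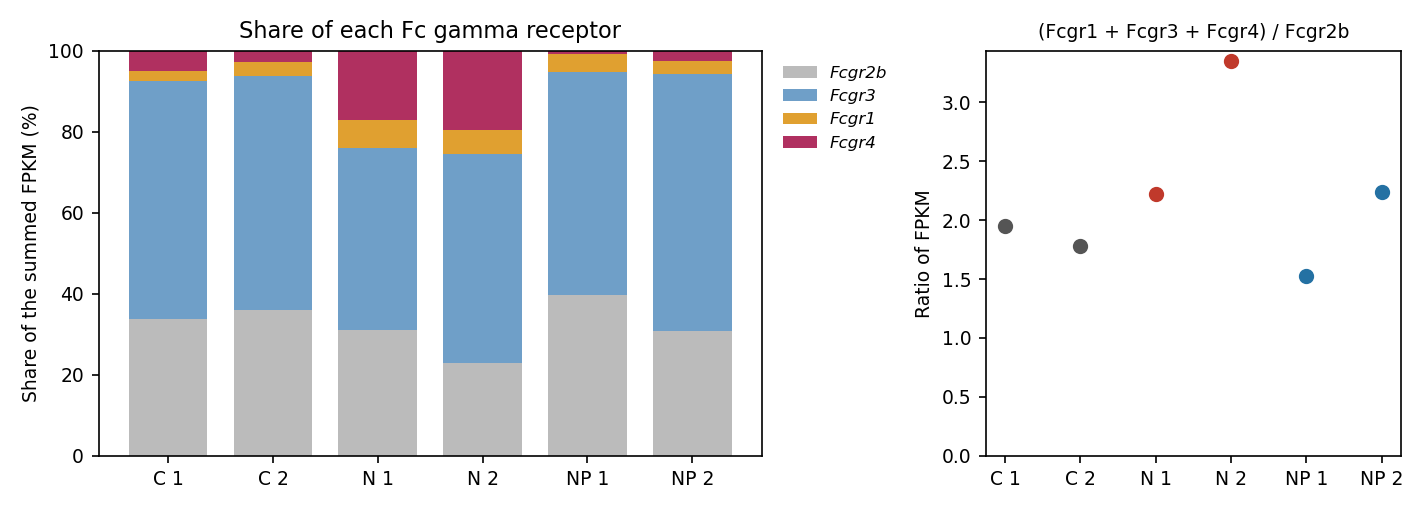
Left, share of each receptor in the summed FPKM of the 4 receptors, in percent, for the 6 libraries (group and replicate number on the horizontal axis). Right, ratio of the activating receptors to *Fcgr2b* in each library; *Fcgr4* takes 17.1% and 19.7% of the sum in the N libraries and at most 4.97% in the others.

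Macrophage markers moved with the receptors. All 20 of a list that includes *Adgre1*, *Cd68*, *Csf1r* and *Mpeg1* were tested, of which 5 rose in N vs C and 10 fell in NP vs N, with median differences of 0.75 and -1.07. Their summed FPKM was 457 and 414 on chow, 855 and 721 on the N diet and 355 and 315 with pemafibrate. None of them was at 0 in the C group. Without C replicate 2, 0 of these markers passed in N vs C in limma's test, 12 were higher at an unadjusted *P* value under 0.05, and 3 fell in NP vs N.

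The receptors were set against these markers, as the log2(FPKM + 1) level of a gene minus the mean log2(FPKM + 1) of the 20 markers in the same library. Relative to the markers, *Fcgr4* differed by 1.57 in N vs C and by -2.06 in NP vs N, with a pooled SD between replicates of 0.318. In N vs C, 0 of the 20 markers had a larger difference than *Fcgr4*, and in NP vs N all 20 had one closer to 0. *Fcer1g* differed by 0.69 and -0.41 (pooled SD 0.186) and *Fcgr1* by 0.46 and -0.39 (pooled SD 0.0526). These relative levels of *Fcgr1*, *Fcgr4* and *Fcer1g* did not overlap between the N libraries and the C or NP libraries. The share of all genes that were apart in this way on the relative scale was not computed. The relative differences of *Fcgr3* were -0.19 and -0.27 (pooled SD 0.247) and those of *Fcgr2b* were -0.31 and -0.13 (pooled SD 0.102). With the median of the markers in place of the mean, the relative difference in NP vs N was -0.06 for *Fcgr1*, -0.08 for *Fcer1g* and -1.73 for *Fcgr4*, and it turned to 0.07 for *Fcgr3* and 0.20 for *Fcgr2b*.

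The marker lists of the other cells given here summed to less FPKM than the macrophage list. Such sums depend on which genes are listed and do not compare numbers of cells. The 9 neutrophil markers measured, of which none was at 0 in all libraries, summed to 8.68 and 4.09 FPKM on chow, 14.4 and 10.8 on the N diet and 2.70 and 4.11 with pemafibrate. The 10 NK cell markers summed to 1.16 and 1.08 FPKM on chow, 9.14 and 12.5 on the N diet and 0.951 and 1.20 with pemafibrate, and of the 3 tested 2 rose in N vs C and 2 fell in NP vs N. Without C replicate 2, 0 of these 3 passed in limma's test in either comparison, although all 3 had an unadjusted *P* value under 0.05 in both. Both lists were highest in the N libraries, as were the 10 B cell markers, at 6.99 and 6.87 FPKM against 1.496 to 3.03 in the other libraries. T cell markers summed to 3.69 and 3.02 FPKM in the N libraries and to at most 0.793 FPKM elsewhere, with *Trat1* at 0 in all 6 libraries. The sum of 8 adipocyte markers was also highest in the N libraries, with 3.34 and 25.4 FPKM on chow, 201 and 120 on the N diet and 17.0 and 98.7 with pemafibrate. The part of these cells in the levels of the receptors was not tested. Mast cells also carry the Fc gamma chain. Their 10 markers summed to 7.20 and 5.76 FPKM on chow, 10.8 and 12.6 on the N diet and 11.1 and 13.4 with pemafibrate. *Fcer1g* was at 16.0 and 12.1 FPKM on chow, 41.2 and 41.4 on the N diet and 13.9 and 14.6 with pemafibrate. The part of mast cells in the level of *Fcer1g* was not tested either.

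Receptors of the Fc family outside the 5 genes were mostly low, with 3 of 13 tested. *Trim21*, a cytosolic receptor for antibodies, rose by 1.56 in N vs C (limma adjusted *P* = 0.0108) and fell by 1.63 in NP vs N (limma adjusted *P* = 0.00991). Without C replicate 2, 0 of these 3 genes passed in limma's test in either comparison, while 1 had an unadjusted *P* value under 0.05 in each. *Fcgrt*, which encodes the neonatal Fc receptor that recycles immunoglobulin G, was at 57.6 and 55.1 FPKM on chow, 59.1 and 46.5 on the N diet and 55.1 and 50.3 with pemafibrate, above each of the 5 genes in every library. Its groups overlapped, and it did not pass (limma adjusted *P* = 0.804 in N vs C). Of a list of 12 genes of immunoglobulins and other possible ligands, 4 were found and 1 was tested. It was *Jchain*, which joins polymeric immunoglobulins. *Jchain* was at 1.43 and 5.80 FPKM in the N libraries and under 0.1 FPKM in the others (limma adjusted *P* = 0.136 in N vs C). The immunoglobulin heavy chain genes on this list were searched for by symbol and were not found.

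Of the other proteins that use the Fc gamma chain, 2 of 10 were tested and 0 passed in N vs C or NP vs N in limma's test, *Pira6* and *Clec4n* having differences of 0.46 and 0.48 in N vs C. At an unadjusted limma *P* value under 0.05, 0 of these 2 passed in N vs C and 1 in NP vs N. *Tyrobp* encodes DAP12, an adaptor with an ITAM similar to that of the Fc gamma chain. Its FPKM was 31.5 and 28.9 on chow, 46.8 and 53.7 on the N diet and 16.1 and 17.3 with pemafibrate. *Tyrobp* fell by 1.53 in NP vs N (limma adjusted *P* = 0.00401), and its difference in N vs C was 0.71 (limma adjusted *P* = 0.0615). The groups did not overlap, and unlike *Fcer1g*, *Tyrobp* had NP libraries that lay below the C libraries, although the difference between these 2 genes was not tested.

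Downstream of the receptors, the kinases and adaptors of ITAM signalling were counted next. Of 23 tested, 0 passed in N vs C in limma's test, although 13 were higher at an unadjusted *P* value under 0.05. In NP vs N 1 of the 23 fell in limma's test, while 11 were lower and 1 higher at that unadjusted threshold. The medians of the list were 0.44 in N vs C and -0.36 in NP vs N. The effectors of phagocytosis and of the oxidase had 6 of 18 higher in N vs C, 6 of 18 lower in NP vs N, and medians of 0.82 and -0.89. *Cybb*, the catalytic subunit of the phagocyte oxidase, differed by 1.42 and -1.54 (limma adjusted *P* = 0.0134 and 0.0102), the actin-binding *Coro1a* by 1.63 and -1.76 (limma adjusted *P* = 0.0152 and 0.0120), and the actin-bundling *Lcp1* by 1.47 and -1.42 (limma adjusted *P* = 0.00857 and 0.00991). Without C replicate 2, 0 of these 18 genes passed in N vs C in limma's test, 11 were higher at an unadjusted *P* value under 0.05, and 2 fell in NP vs N.

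A list of inhibitory receptors, phosphatases, Dok adaptors and Cbl ubiquitin ligases, all of which can dampen such signals as *Fcgr2b* does, had 2 of 18 members higher in N vs C and 4 of 18 lower in NP vs N, with medians of 0.59 and -0.58. *Lair1*, a collagen receptor, differed by 1.25 and -1.30 (limma adjusted *P* = 0.0287 and 0.0273) and *Cd72*, which is best known from B cells, by 1.29 and -0.98 (limma adjusted *P* = 0.0142 and 0.0401). *Pirb*, a paired receptor of myeloid cells, fell by 1.19 in NP vs N (limma adjusted *P* = 0.0303), and its difference in N vs C was 0.78 (limma adjusted *P* = 0.0957). Without C replicate 2, 0 of the 18 passed in limma's test in N vs C or NP vs N, while 8 and 10 had an unadjusted *P* value under 0.05. Among 7 phagocytic receptors for complement, 0 passed in either comparison in limma's test, while 6 were higher in N vs C and 5 lower in NP vs N at an unadjusted *P* value under 0.05. *Itgb2*, the shared chain of the complement receptor integrins, differed by 1.25 and -1.34 (limma adjusted *P* = 0.0664 and 0.0590) and the anaphylatoxin receptor *C5ar1* by 0.92 and -0.79 (limma adjusted *P* = 0.0772 and 0.147).

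A list for the response to interferon-gamma, which is known to raise *Fcgr1* and *Fcgr4*, had 5 of 13 genes higher in N vs C. In NP vs N 6 of 13 were lower, and the medians were 1.21 and -1.29. *Ifng* itself, on the same list, was not tested, at 0.114 FPKM in N replicate 2 and 0 in the other libraries. The receptor genes *Ifngr1* and *Ifngr2* differed by 0.08 and -0.26 in N vs C and by -0.16 and 0.14 in NP vs N. *Cd274*, which encodes the ligand of PD-1, differed by 3.46 and -3.65 (limma adjusted *P* = 0.000959 and 0.000841), and *Irf8*, a factor of the monocyte lineage, by 1.21 and -1.29 (limma adjusted *P* = 0.0141 and 0.0118). Without C replicate 2, 2 of these 13 genes rose in N vs C and 2 fell in NP vs N. A relation between these genes and the receptors was not tested.

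**Figure D5:**
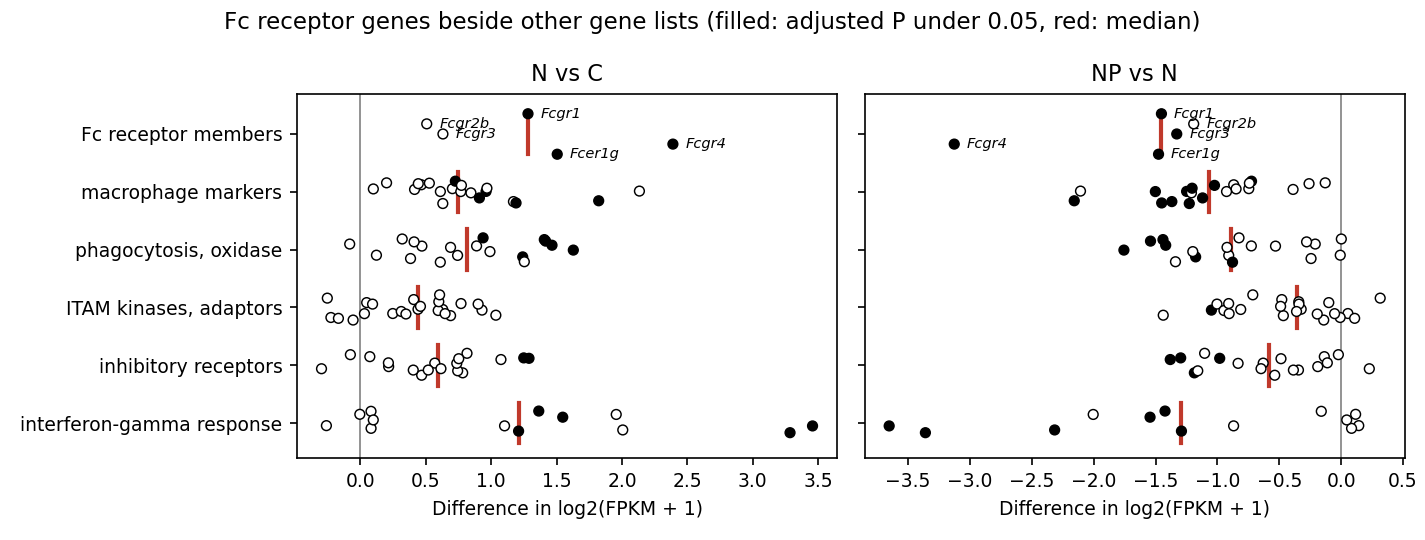
Difference in log2(FPKM + 1) of the 5 genes beside 5 other lists, for N vs C on the left and NP vs N on the right (1 point for each gene tested, filled where the adjusted *P* value is under 0.05, with the median as a red line and vertical scatter for legibility only). *Fcgr4* lies at 2.39 and -3.13, beyond every macrophage marker in both panels, and all 5 genes lie right of 0 on the left and left of 0 on the right.

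The genes whose log2(FPKM + 1) followed each receptor most closely over the 6 libraries were found by Pearson's r, which is a description, since all values share the same 6 libraries. For *Fcgr1* these were *Zfp418* (r = 0.998), *Cd74*, the invariant chain of antigen presentation (r = 0.997), and *Mpeg1*, a macrophage pore protein (r = 0.997). For *Fcgr4* they were *2210039B01Rik* (r = 0.997), *Arhgap30* (r = 0.995) and *Alox5ap*, an activator of leukotriene synthesis (r = 0.994). For *Fcer1g* they were *Lcp1* (r = 0.998), *Tpm3* (r = 0.998) and *Irf7*, a factor of the interferon response (r = 0.997). The number of genes with r above 0.95 was 244, 199 and 257 for these 3 genes, 35 for *Fcgr3* and 23 for *Fcgr2b*.

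For *Fcgr3* the nearest genes were *Nrm* (r = 0.998), *Nudt13* (r = 0.998) and *Ifi204* (r = 0.992). For *Fcgr2b* they were *Ccr2*, the chemokine receptor of recruited monocytes (r = 0.990), *Ccl6* (r = 0.986) and *Dock8* (r = 0.983). *Ccr2* was at 1.29 and 1.15 FPKM on chow, 3.51 and 2.16 on the N diet and 0.357 and 0.312 with pemafibrate, the same order of libraries as *Fcgr2b*. Among the 5 genes themselves, r ranged from 0.770 for *Fcgr2b* with *Fcer1g* to 0.969 for *Fcgr4* with *Fcer1g*.

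*Fcgr2b*, *Fcgr4*, *Fcgr3* and *Fcer1g* lie in this order within 274 kb of chromosome 1, together with 38 other RefSeq genes, many of them transfer RNA genes. Of the 7 other protein-coding genes 5 were tested, and 0 of these passed in limma's test in N vs C or NP vs N. At an unadjusted limma *P* value under 0.05 the numbers were 2 and 0, and these 2 were lower in the N group. *Sdhc*, a subunit of respiratory complex II, was at 435 to 558 FPKM in the 6 libraries, and *Apoa2* was at 146 FPKM in C replicate 2 and at 1.14 to 16.7 FPKM in the others.

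The sequences of 2 of the receptors limit how well their reads can be kept apart. Over 509 aligned bases the transcripts of *Fcgr2b* and *Fcgr3* were 96.5% identical. They share 94 stretches of 75 bases, the read length, which is 6.77% of the positions of the *Fcgr2b* transcript of 1462 bases and 7.38% of those of *Fcgr3*. A longer *Fcgr2b* transcript, of 3544 bases, shared 9.25% of its positions with 69 genes, *Fcgr3* among them. Allowing 2 mismatches between the shorter *Fcgr2b* transcript and *Fcgr3*, the shares were 22.2% and 24.2%, so that the levels of both genes are uncertain. *Fcgr1*, *Fcgr4* and *Fcer1g* shared 0 such stretches with any other gene in the annotation, and their values do not have this limit. *Fcgr2b* also overlaps the antisense gene *Gm38204* by 155 exon bases, and the way the reads were counted with respect to strand is not given in the sources used here.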

How the data were processed

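Heart RNA of the C, N and NP groups was represented by 6 libraries, 2 for each group, which the sample titles name. Libraries were made with a stranded mRNA kit and read as 75-base single ends. The authors mapped the reads to mm10 with TopHat2 2.0.13, Bowtie2 2.2.3 and SAMtools 0.1.19, and the deposited values are FPKM from Cufflinks 2.2.1. The annotation and strand setting are not given in the sources used here. The labels name the heart as tissue, whereas their extraction protocol speaks of liver. The 2 N files, like the 2 NP files, carry names of different kinds, whose meaning the labels do not give, and the same kind goes with the same replicate number in both groups. Read counts were not used here.

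The FPKM were used as log2(FPKM + 1), unscaled, and only genes averaging at least 0.5 FPKM were tested. A model with 3 groups was fitted with limma 3.58.1 in R 4.3.3, with a variance prior that depends on expression, and Benjamini-Hochberg adjustment was made over the 12923 genes of each comparison (threshold 0.05). The step was tested on simulated data. Exact permutation tests were two-sided, with scipy 1.17.1 in Python 3.11.15 (numpy 2.4.6, pandas 2.3.3, matplotlib 3.10.9, Biopython 1.88). The depth was estimated from 3912 genes with 1 transcript in GENCODE M21, with 199 bases taken off the transcript length, and 73.9% to 78.8% of the values of up to 5 reads lay within 0.1 of a whole read. A floor of 3 reads was set, and the *Fcgr4* value of NP replicate 1, at an estimated 1.0 reads, was kept although it lies under that floor.

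The 5 genes, the 22 other lists and the tests were chosen with earlier results of these data known, so that no list is independent evidence. The lists hold 262 entries, of which 252 were found. From each pathway list up to 3 genes past the threshold between the N and C or the NP and N groups were named, by the largest absolute moderated t, or else the 2 with the smallest *P* value. Some genes that this rule gives are not reported here. For each receptor the 3 genes with the highest Pearson's r were named. *Fcgrt*, *Sdhc*, *Apoa2*, *Ifng*, *Ifngr1*, *Ifngr2* and the macrophage markers named beside *Mpeg1* were chosen after their values were seen. Gene positions and promoters are those of RefSeq for GRCm38.p6, in which all 5 genes were found. Transcript overlaps are from GENCODE M21. Alternatives changed the pseudocount, the filter, the scaling, the design or the set of libraries. Protein sequences were not used here.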

Additional observations from a re-analysis of the deposited data

How the results depend on the processing

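No result has more than 2 libraries a group, and leaving out 1 library leaves a group whose lone sample is assumed to vary like the others. Over such analyses 0 to 3 of the 5 genes passed between the N and C groups, 1 to 3 between the NP and N groups and 0 between the NP and C groups, and the number of genes called ranged from 49 to 183, 67 to 108 and 5 to 101. With only the 2 groups compared, 2 of the 5 genes passed between the NP and N groups, and 78 genes did in all, where *Fcgr1* and *Fcgr3* had limma adjusted *P* values of 0.0546 and 0.0761; fewer samples enter that fit. The main fit did not use the replicate numbers as pairs. Across genes, the difference between replicates had a Pearson's r of 0.0471 between the C and N groups and 0.124 between C and NP. Between N and NP it was higher, at 0.458. With the replicate number as a block, 3, 5 and 0 of the 5 genes passed in N vs C, NP vs N and NP vs C, *Fcgr2b* joining in NP vs N (limma adjusted *P* = 0.0156), and 328 genes passed in N vs C and 20 in NP vs C. With that replicate block in the N and NP libraries only, chosen after seeing the data, 4, 5 and 0 of the 5 genes and 1070, 301 and 103 genes passed, *Fcgr2b* passing in N vs C too (limma adjusted *P* = 0.0424). Scaling to the same total, which moved the median of all genes in N vs C from -0.03 to 0.12, gave 312 genes in N vs C and 10 in NP vs C. A pseudocount of 0.1 gave 12 genes in NP vs C, and no filter on low values gave 0 in limma's test, with 1353 of 17880 at an unadjusted *P* value under 0.05. The cause of these shifts was not tested. The difference of *Fcer1g* between the NP and C groups turned to -0.16 without C replicate 2 and to -0.00506 without NP replicate 2, in a range up to 0.22.

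The log2 ratio of activating receptors to *Fcgr2b* ranged from 0.26 to 0.85 in N vs C, from -0.86 to -0.27 in NP vs N and from -0.29 to 0.27 in NP vs C when 1 library was left out, and in NP vs C it was 0.37 for *Fcgr1* alone, 0.0218 for *Fcgr3* alone, -1.47 for *Fcgr4* alone and -0.32 without *Fcgr3*. Relative to the median of the macrophage markers, the N vs C differences were 0.17 for *Fcgr1*, -0.60 for *Fcgr2b*, -0.48 for *Fcgr3* and 0.40 for *Fcer1g*, and the NP vs N differences were -0.0566, 0.20, 0.0672 and -0.0800, with -1.73 for *Fcgr4*. With a pseudocount of 0.1 the relative differences were 0.96, -0.98 and -0.0186 for *Fcgr1* in N vs C, NP vs N and NP vs C, 2.15, -3.60 and -1.45 for *Fcgr4*, and -0.0195 for *Fcgr2b* in NP vs N. Leaving out 1 library gave relative differences in N vs C of 0.40 to 0.53 for *Fcgr1* and -0.43 to -0.19 for *Fcgr2b*, in NP vs N of -0.25 to -0.0123 for *Fcgr2b*, and in NP vs C of 0.0108 to 0.14 for *Fcgr1*. Depth limits *Fcgr4* and *Fcgr1* most, whose NP values rest on an estimated 5 and 26 reads over both libraries.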
